A study of Homo sapiens with 3 samples.

Results

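The vehicle-treated LX-2 library was described by itself, as the state from which the study's rhFGF19 treatments started: which genes the unstimulated line expressed, in which order, and which genes of stellate cells it lacked. Its members were all named genes whose row in the deposited table lists a protein-coding transcript, 15122 genes of the 26108 rows. LX-2 is a human line derived from hepatic stellate cells and immortalised with a viral large T antigen, and is therefore a cultured and dividing model of this cell type. The cells were kept in complete DMEM and the control culture received vehicle without rhFGF19, the recombinant human form of the intestinal hormone FGF19. The other libraries of the series come from 1 culture each, treated with rhFGF19 at 50 or 100 ng/mL. Their sample records give 72 h and 73 h of stimulation, a longer time than the paper does, and exchange the doses in 1 field; the doses used here follow the titles. Poly(A) mRNA was sequenced once per condition. Hence no value has a replicate, an SD or a test, and differences between genes within the library are given as levels only.

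Hepatic stellate cells lie between the hepatocytes and the sinusoidal endothelium. At rest they store vitamin A as retinyl esters in lipid droplets and express GFAP and desmin. After liver injury they lose these stores, divide, acquire α-smooth muscle actin and fibrillar collagens, and become the main source of scar matrix. In liver metastases the same cells give rise to cancer-associated fibroblasts that secrete cytokines, chemokines and growth factors.

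Levels were read as FPKM, the number of sequenced fragments divided by transcript length in kilobases and by the size of the library. Because FPKM divides by transcript length, levels of different genes in the library can be ranked against each other. The values were deposited to 2 decimals without read counts, so the depth is unknown and a value close to 0 is less certain than its digits show. A gene was counted as expressed at 1 FPKM or more. This held for 7966 of the 15122 genes, or 52.7%, and this share is the background for each list below. Another 6013 genes lay above 0 and under 1 FPKM, and 1143 were listed at 0. Some genes named below had no row among those used. A missing row is not read as a level of 0, since 72 genes at 0 in every library did have a row. In the 50 and 100 ng/mL libraries the expressed share was 64.9% and 64.7%.

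The vehicle library stood apart from both rhFGF19 libraries in how its levels followed base composition. Among the expressed genes, the Spearman correlation across genes between FPKM and transcript GC content was 0.431 over 7965 genes in vehicle, and 0.354 in each rhFGF19 library. The genes were also split into 10 classes of equal size by GC content. In the class with the lowest GC content, which had a median of 38.1% GC, 23.3% were expressed in vehicle against 54.9% and 53.4% in the 50 and 100 ng/mL libraries. In the class with a median of 60.7% GC, the shares were 71.0%, 71.0% and 70.6%. AT-rich genes were thus listed lower in vehicle than in the other libraries, and the 1808 genes under 1 FPKM in vehicle but at 1 or more in both others had a median GC content of 42.7%. Treatment and library cannot be told apart here. Where a named gene was under 1 FPKM in vehicle and at 1 or more in both others, those values are given in brackets, 50 ng/mL first. Across all named protein-coding genes the ranks of vehicle correlated with those of the rhFGF19 libraries at 0.965 and 0.966 (Spearman, across genes), while the rhFGF19 libraries correlated with each other at 0.993.

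**Figure D1:**
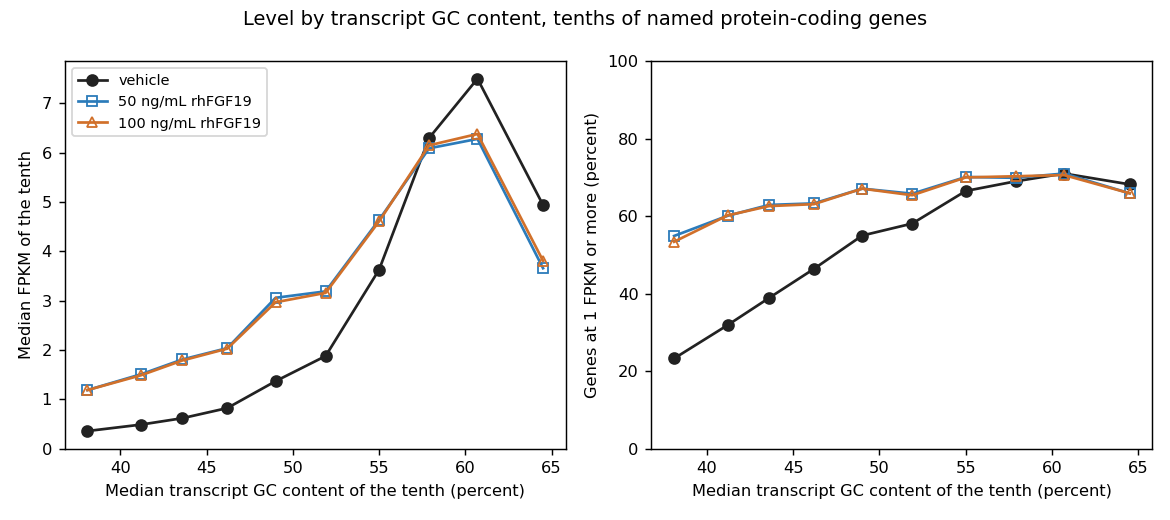
Median FPKM (left) and percent of genes at 1 FPKM or more (right) of the named protein-coding genes, split into 10 classes of equal size by transcript GC content, against the median GC content of each class, for the vehicle library (filled circles) and the rhFGF19 libraries of 50 (squares) and 100 ng/mL (triangles). The vehicle line starts at 0.36 FPKM and 23.3% in the class of lowest GC content, under the other lines, and ends above them in the left panel, at 4.94 against 3.66 and 3.81.

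The library was dominated by few genes. The 10 highest held 13.74% of the FPKM of all named protein-coding genes, the 100 highest 38.02% and the 1000 highest 74.75%. The median over all genes was 1.19 FPKM, and 30 genes reached 1000 FPKM. First was FTL, the light chain of the iron store ferritin, at 8707.16 FPKM, and its heavy chain FTH1 was at 2562.45. TMSB10, a thymosin that binds actin monomers, stood second at 5995.21, and the glycolytic enzyme GAPDH followed at 5906.72. LGALS1, the secreted lectin galectin-1, reached 2430.51 at rank 8. PFN1, the actin-binding profilin, was at 1830.40, cytoplasmic actin ACTG1 at 1507.54 and the tubulin TUBA1B at 1571.47. The elongation factor subunit EEF1G lay at 1711.59, triosephosphate isomerase TPI1 at 1619.13 and ubiquitin UBB at 1445.08. Another 8 of the 20 highest genes were encoded by mitochondrial DNA, from MT-CO1 at 3473.58 to MT-ND4L at 1371.16. As classes, 82 ribosomal protein genes held 8.11% of the FPKM, the 13 mitochondrially encoded genes 7.5%, 20 genes of actin, tubulin and actin binding 6.65%, the 2 ferritin chains 3.96% and 17 glycolytic genes 3.81%. The mitochondrial share was 12.13% and 12.79% in the 50 and 100 ng/mL libraries.

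**Figure D2:**
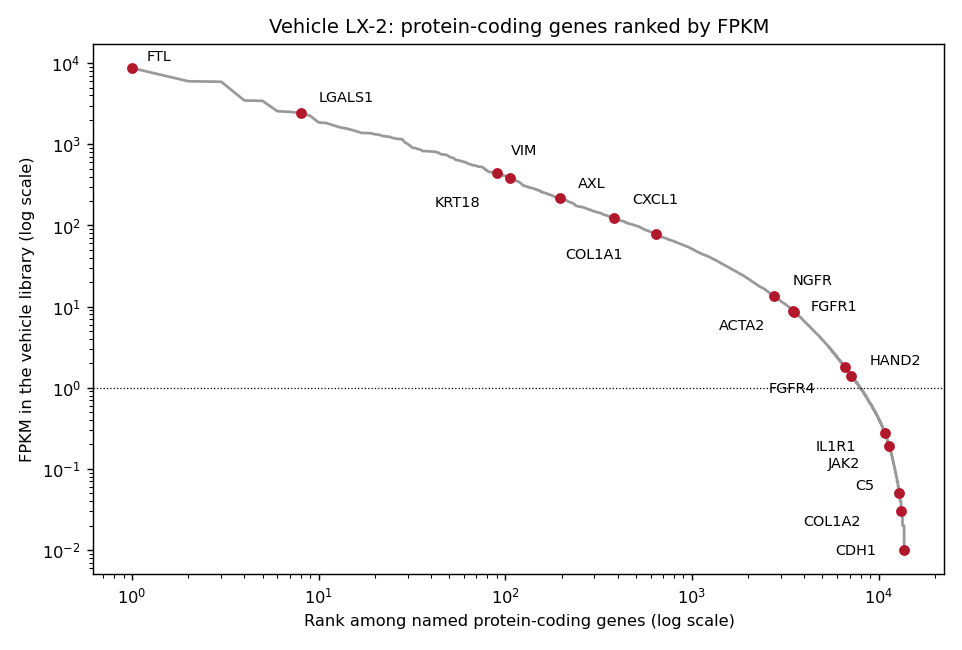
FPKM in the vehicle library (vertical, log scale) against the rank of each named protein-coding gene above 0 (horizontal, log scale), with 17 genes marked in red and 1 FPKM as a dotted line. VIM, KRT18, AXL and CXCL1 lie at ranks 90, 106, 196 and 383, whereas COL1A2, C5 and CDH1 lie at the far end of the curve.

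A list of 20 housekeeping genes was expressed in full, from GAPDH down to the transferrin receptor TFRC at 2.97 FPKM, with a median of 178. EEF1A1, the abundant elongation factor 1α, was at 294.29 in vehicle and at 1330.27 and 1280.05 in the other libraries. Of 30 proliferation genes, 28 were expressed (93.3%), led by thymidine kinase TK1 at 325.50 FPKM, the cyclin-dependent kinase CDK4 at 279.66 and the helicase subunit MCM7 at 230.59. The cell cycle inhibitors CDKN1A and CDKN2A stood at 145.72 and 56.92, and the proliferation antigen MKI67 at 6.89.

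The library was next set beside marker lists. The 5 marker genes given for this library were all expressed, at ranks from 90 to 3533. They were given together with the library, so their levels are no check of the cells' label. VIM (vimentin, the intermediate filament of mesenchymal cells; chr10:17228241-17237593, + strand) was at 438.65 FPKM and rank 90. KRT18 (a keratin of simple epithelia; chr12:52948871-52952900, + strand) was at 382.22 and rank 106. CXCL1 (a neutrophil-attracting chemokine; chr4:73869393-73871308, + strand) was at 122.06 and rank 383. COL1A1 (the α1 chain of type I collagen; chr17:50184101-50201632, − strand) was at 78.35 and rank 640. ACTA2 (α-smooth muscle actin; chr10:88935074-88991339, − strand), the usual marker of activated stellate cells, was the lowest at 8.55 and rank 3533. Positions are given as in the deposited table. They matched the GRCh38 position of the same gene for 99.87% of the identifiers found in GENCODE v29.

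Of 30 markers of activated stellate cells and fibroblasts, 27 had a row and 22 of these were expressed (81.5%, against 52.7% of all genes), with a median of 6.06 FPKM. The contractile genes MYL9 (a myosin light chain), TAGLN (transgelin) and TPM2 (a tropomyosin) reached 449.01, 222.65 and 156.66. TIMP1, an inhibitor of matrix metalloproteinases, was at 308.41, and the surface glycoprotein THY1 at 29.71. PDGFRB, the receptor through which platelet-derived growth factor acts on stellate cells, was expressed at 3.86. Some exceptions were sharp. COL1A2, the α2 chain that completes type I collagen, was listed at 0.03, PDGFRA at 0.01 and the proteoglycan lumican (LUM) at 0. The others were PDPN (podoplanin) at 0.35 and the cadherin CDH11 at 0.46 (1.16 and 1.24). At the protein level, the paper reports staining for PDPN and PDGFRα in LX-2 cells treated with FGF19. FAP, POSTN and DCN had no row among those used here.

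Genes on a list of stellate identity markers, some of which mark the resting state, were mostly low. Of 24 such genes, 21 had a row and 6 were expressed (28.6%), with a median of 0.26 FPKM, close to the 0.25 of each rhFGF19 library. By the median of genes of like GC content 3 were called, and after rescaling to TPM 9 were. ECM1, a matrix protein that quiescent stellate cells secrete, was at 34.59 and the neurotrophin receptor NGFR at 13.44. The parathyroid hormone receptor PTH1R was at 3.37, the TGF-β pseudoreceptor BAMBI at 1.99 and the stellate transcription factor HAND2 at 1.41. GFAP was at 0.11, desmin (DES) at 0, reelin (RELN) at 0.07, hepatocyte growth factor (HGF) at 0.01 and PPARG, a nuclear receptor of the quiescent state, at 0.02. LRAT, the enzyme that esterifies retinol, had no row. Of 16 genes of retinoid handling with a row, 6 were expressed (37.5%), and 4 of these were retinoid receptors. The count was 3 against the median of genes of like GC content, and 10 after rescaling to TPM. RXRB stood at 28.19, RARA at 10.73, RARG at 7.12 and RXRA at 3.15, beside the retinoic acid-binding protein CRABP2 at 11.23 and the retinaldehyde dehydrogenase ALDH1A3 at 2.01. The genes of retinoid storage and breakdown were lower. PLIN2, which coats lipid droplets, was at 0.92 (2.44 and 2.21), the retinol uptake receptor STRA6 at 0.58 and the retinoic acid hydroxylase CYP26A1 at 0. Most markers of activated stellate cells were thus expressed, whereas most genes of the stellate identity list were not. Of the latter, the 6 expressed were ECM1, NGFR, PTH1R, BAMBI, HAND2 and PDGFRB, which is also on the activated list. GFAP, DES and PPARG, genes of the resting state, were near 0, and LRAT had no row. The identity list therefore joins genes of the cell type with genes of its resting state, and the contrast does not separate these.

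Markers of other cell types were unevenly present. Of 34 epithelial markers with a row, 17 were expressed (50.0%, close to the background), and their summed level was 824.8 FPKM in vehicle against 552.4 and 559.1 in the 50 and 100 ng/mL libraries. Keratins made up most of this sum. The median of the list went the other way, at 0.99 FPKM in vehicle against 1.33 and 1.32. Besides KRT18, the hair keratin KRT81 was at 194.14 and KRT8, the partner of keratin 18, at 120.96. The laminin chain LAMB3 was at 62.06, KRT80 at 12.44 and the desmosomal plakophilin PKP3 at 9.62. Among junction genes, JUP was at 9.56, the tight junction protein TJP1 at 2.70, CLDN1 at 1.66, the desmoglein DSG2 at 1.3 and CLDN4 at 1.07. Other epithelial markers were near 0. E-cadherin (CDH1) was at 0.01, P-cadherin (CDH3) at 0.06, the epithelial splicing regulators ESRP1 and ESRP2 at 0 and 0.08 and keratin KRT19 at 0.11, and EPCAM had no row. CDH2, the N-cadherin of mesenchymal cells, was at 3.84. KRT18 overlaps KRT8, and KRT81 overlaps KRT86, on the opposite strand. As the strand setting of the counting is not stated, their reads may not be fully separated.

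Hepatocyte markers were expressed for 3 of 18 genes (16.7%, median 0.035 FPKM). These were the protease inhibitor SERPINA1 at 8.93, the asialoglycoprotein receptor chain ASGR1 at 2.92 and albumin (ALB) at 2.16, whereas apolipoprotein B (APOB) was at 0.03, transthyretin (TTR) at 0.02 and the master regulator HNF4A at 0. Endothelial markers were expressed for 2 of 12 genes (16.7%), the receptor kinase TIE1 at 39.55 and ROBO4 at 2.77. The defining endothelial genes PECAM1, CDH5 and KDR were at 0.03, 0 and 0. Of 21 leukocyte and blood markers, 15 had no row, PTPRC among them, and 1 of the other 6 was expressed, the lipopolysaccharide co-receptor CD14 at 4.28. Of 15 markers of smooth muscle and portal fibroblasts, 6 were expressed (40.0%), led by the AXL ligand GAS6 at 57.77, smoothelin (SMTN) at 28.41, the smooth muscle actin ACTG2 at 22.31 and calponin CNN1 at 19.36, while smooth muscle myosin MYH11 was at 0. In a bulk library, few cells with much RNA of a gene and many cells with little cannot be told apart, and the part of other cells in these levels was not tested.

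**Figure D3:**
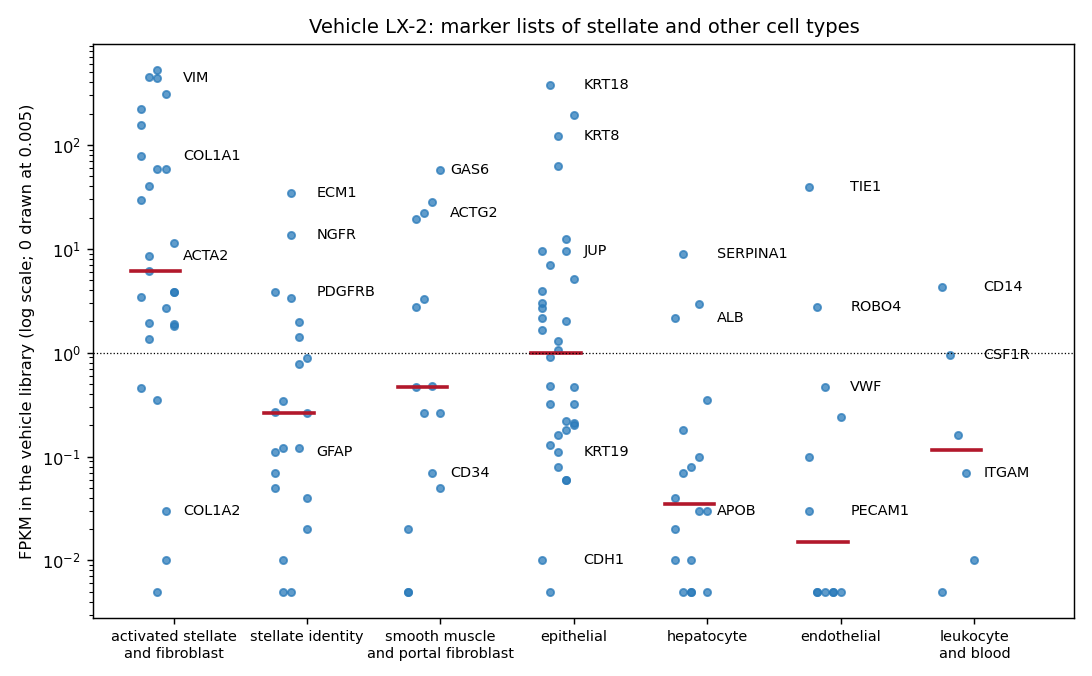
FPKM in the vehicle library (vertical, log scale, values of 0 drawn at 0.005) of each member of 7 marker lists, with the list's median as a red bar and 1 FPKM as a dotted line. The median of the activated stellate and fibroblast list is 6.06, and those of the stellate identity, hepatocyte, endothelial and leukocyte lists are 0.26, 0.035, 0.015 and 0.115.

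The extracellular matrix is the product by which stellate cells are chiefly known. Of 47 matrix protein genes with a row, 38 were expressed (80.9%), with a median of 7.5 FPKM. The highest was the collagen VI chain COL6A2 at 140.51, followed by the matricellular protein CCN1 at 112.35, the heparan sulphate proteoglycan agrin (AGRN) at 78.73, COL1A1 at 78.35, COL6A1 at 73.21 and the elastic fibre protein EFEMP2 at 64.53. Fibronectin (FN1) was at 58.63, the collagen-binding protein SPARC at 40.27 and tenascin C (TNC) at 38.25. COL3A1, the fibrillar collagen that accompanies type I collagen in scars, was expressed at 1.79. Biglycan (BGN) was at 0.06, and the decorin gene and elastin (ELN) had no row.

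Collagens and laminins are assembled from several chains, and the chains of 1 molecule were often at unlike levels. Type I collagen normally joins 2 α1 chains to 1 α2 chain, yet COL1A1 stood at 78.35 FPKM and COL1A2 (chr7:94394895-94431227, + strand) at 0.03, rank 13191. COL1A2 was also low in the other libraries, at 0.10 and 0.14, where COL1A1 was at 107.83 and 104.14. In type IV collagen of basement membranes, COL4A2 was at 40.92 and COL4A1 at 5.99. In the 50 and 100 ng/mL libraries COL4A2 was at 49.39 and 46.33, and COL4A1 at 10.92 and 10.25. These genes overlap on opposite strands, so their reads may not be fully separated. For type V collagen, COL5A1 was at 17.28 and COL5A2 at 28.97. COL6A3, the large remaining chain of collagen VI, was at 4.98, under both of its partners. Among laminins, LAMB3 at 62.06, the β3 chain, had its partner LAMA3, the α3 chain, at 0.06. The chains of the laminin of α5, β1 and γ1 were all above 5 FPKM, with LAMA5 at 39.59, LAMC1 at 12.49 and LAMB1 at 7.35. In the 50 and 100 ng/mL libraries LAMA5 was at 38.56 and 38.97, LAMC1 at 27.77 and 27.67, and LAMB1 at 16.82 and 15.77. The lower chains COL1A2 and LAMA3 had transcripts of 47.4% and 42.4% GC, against 61.5% and 59.2% for COL1A1 and LAMB3. COL4A1 and COL6A3 had 49.9% and 50.4%, against 55.4% for COL4A2 and 63.4% and 65.1% for COL6A1 and COL6A2. In type V collagen the higher chain COL5A2 had the lower GC content, 49.5% against 60.3% for COL5A1. LAMA3 was at 0.11 and 0.12 in the 50 and 100 ng/mL libraries. The part of GC content in the low levels was not tested.

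Of 31 enzymes and inhibitors that build or degrade matrix, 28 were expressed (90.3%), with a median of 40.9 FPKM. Beside TIMP1, the collagen prolyl hydroxylase subunit P4HB was at 410.89, the lysosomal proteases CTSD and CTSL at 315.65 and 140.42, and the collagen cross-linking enzyme LOXL2 at 135.82. The interstitial collagenase MMP1 was at 123.83, urokinase (PLAU) at 115.41 and the membrane-bound MMP14 at 86.94. MMP2, the gelatinase that MMP14 activates, was lower at 3.42, MMP3 was at 0.83 and MMP10 at 0.02. LOXL2 overlaps ENTPD4, and CTSD and TAGLN each overlap an unnamed row, on the same strand, so their levels are uncertain by what was shared. By the annotation in the table, 378 genes were assigned to the extracellular matrix. Of these, 181 were expressed (47.9%, against 52.7% of all genes and 80.9% of the chosen matrix protein list). Among the highest were LGALS1, the glycolytic enzyme PKM at 1313.98, the calcium-binding S100A6 at 821.08, the chaperone calreticulin (CALR) at 567.53, prosaposin (PSAP) at 549.30, S100A10 at 358.16, CTSD, TIMP1 and CTSZ at 210.92, several of which act mainly inside the cell.

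Receptors decide which signals a stellate cell can receive. Of 34 growth factor receptor genes with a row, 25 were expressed (73.5%), with a median of 2.03 FPKM. AXL, the receptor kinase for GAS6, was far above the rest at 215.95 FPKM and rank 196. The ephrin receptors EPHA2 and EPHB4 were at 65.32 and 24.87, the TGF-β co-receptor endoglin (ENG) at 55.39, ERBB2 at 21.04 and NOTCH2 at 16.71. The TGF-β receptors TGFBR2 and TGFBR1 were at 5.61 and 2.0, EGFR at 4.46 and MET, the receptor for hepatocyte growth factor, at 2.68. KIT and the endothelial receptor KDR were at 0, and ERBB3 was at 0.07.

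FGF19 acts on target cells through FGFR4 joined by the co-receptor β-Klotho, the product of KLB. FGFR4 was at 1.79 FPKM (rank 6595) in vehicle, and at 1.21 and 1.31 in the 50 and 100 ng/mL libraries. KLB was at 0 in vehicle, and at 0 and 0.02 in the other libraries. FGFR1 at 8.86 and FGFR3 at 1.20 were the other expressed FGF receptors, and FGFR2, KL and the FGF19 gene had no row. Of 25 genes of FGF19 receptor signalling with a row, 20 were expressed (80.0%), led by the GTPase HRAS at 72.02, the kinases MAP2K2 at 46.86 and MAPK3 at 45.72, and TYK2 at 28.86. The adaptor FRS2 was at 0.31 in vehicle (1.14 and 1.03 in the other libraries), JAK2 at 0.19 and STAT3 at 5.68. By the paper's protein blots, FGF19 raised phosphorylated STAT3, JAK2 and FGFR4 in this line, and drugs against FGFR4 weakened the rise. Low RNA levels of KLB, FRS2 and JAK2 therefore do not show that the cells cannot respond to FGF19.

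Promoters of a few of these genes are printed to set their sequence beside their level. RefSeq promoters on GRCh38.p14 were found for 12031 of the 15122 genes, and the first window of a gene was used where it had several. The CCAAT box (by these letters), the TATA box (letters TATAAA), the GC box (letters GGGCGG), the AP-1 motif (letters TGANTCA) and a κB-type motif (letters GGAATTTCC) were searched on both strands in the 250 bases before the RefSeq start. Shown, 5′ to 3′ on the gene's strand, are the 100 bases before the start, in lower case with matches in capitals. VIM (chr10:17228141-17228240, + strand) and AXL (chr19:41219123-41219222, + strand) were taken as highly expressed mesenchymal genes, KRT8 (chr12:52926470-52926569, − strand) as an abundant keratin, and FGFR4 (chr5:177086815-177086914, + strand) and KLB (chr4:39406830-39406929, + strand) as the FGF19 receptor genes:
VIM: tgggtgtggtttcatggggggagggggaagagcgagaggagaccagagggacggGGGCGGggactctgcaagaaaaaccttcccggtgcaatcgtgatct
AXL: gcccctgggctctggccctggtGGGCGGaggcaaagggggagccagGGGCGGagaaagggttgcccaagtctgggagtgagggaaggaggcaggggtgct
KRT8: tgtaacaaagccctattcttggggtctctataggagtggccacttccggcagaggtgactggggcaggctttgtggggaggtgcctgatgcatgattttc
FGFR4: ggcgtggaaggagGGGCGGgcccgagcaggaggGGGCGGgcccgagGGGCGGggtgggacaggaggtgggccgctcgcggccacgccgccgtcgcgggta
KLB: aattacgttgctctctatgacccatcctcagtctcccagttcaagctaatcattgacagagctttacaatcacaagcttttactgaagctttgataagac
The capitals mark 1 GC box in VIM, 2 in AXL and 3 in FGFR4. None of these letters occurs in the shown bases of KRT8 or KLB. Where a gene has several starts, as the long row of KRT8 allows, the shown window may not belong to the start in use. The FGFR4 window holds 24 CpG dinucleotides in 250 bases and the KLB window 5.

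Across all 12031 promoters, 64.3% held a GC box, 34.8% a CCAAT box, 6.63% a TATA box, 4.31% an AP-1 motif and 0.399% the κB-type motif. The share with a GC box was 44.5% among genes under 0.1 FPKM in vehicle, 63.2% from 0.1 to under 1, 70.2% from 1 to under 10, and 72.8% in each class above that. The median number of CpG dinucleotides was 10 in the lowest class and 21 in the 401 genes at 100 FPKM or more. The TATA box was most frequent at both ends, at 11.4% of the lowest class and 9.48% of the highest, against 4.39% between 10 and 100 FPKM. These shares are a description of the windows in this library, without a test.

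Of 32 cytokine and innate immune receptors with a row, 13 were expressed (40.6%), with a median of 0.35 FPKM. The highest lay in the TNF receptor family, where TNFRSF12A, the receptor for TWEAK, was at 197.48, TNFRSF1A at 69.56, TNFRSF1B at 30.86 and the TRAIL receptor TNFRSF10B at 18.30. The interleukin-4 receptor IL4R was at 14.47 and the interferon-γ receptor chain IFNGR2 at 13.01. The Toll-like receptors TLR2, TLR3 and TLR4 were at 0, 0.01 and 0.09, and CCR2 and IL1R2 at 0. Among 33 G protein-coupled and adhesion receptors, 23 were expressed (69.7%), led by the tetraspanins CD63 at 691.30 and CD151 at 263.66, the integrin chains ITGA3 at 242.84 and ITGA5 at 155.41, and the syndecans SDC1 at 134.75 and SDC4 at 131.07. Both endothelin receptors, EDNRA and EDNRB, which mediate contraction of stellate cells, were at 0 and 0.02, and the bile acid receptor GPBAR1 was at 0. By annotation, 705 genes carried a receptor activity and 257 were expressed (36.5%, against 52.7% of all genes). Those not yet named among the 10 highest were RPSA at 1237.34, a ribosomal protein also annotated as a laminin receptor, the amino acid transporter SLC1A5 at 173.03, TSPO at 126.03, the adhesion molecule ICAM1 at 100.03, LGALS3BP at 97.63, EBP at 87.91 and NECTIN2 at 82.93.

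Activated stellate cells also signal to immune cells by secreted cytokines and chemokines. Of 31 cytokine and chemokine genes with a row, 18 were expressed (58.1%, against 52.7% of all genes), with a median of 2.79 FPKM. The macrophage migration inhibitory factor MIF was highest at 295.16, followed by the T cell-attracting chemokine CCL5 at 250.79, CXCL1 at 122.06, IL32 at 67.61, the fibrosis-associated cytokine IL11 at 51.31 and the granulocyte growth factor CSF3 at 49.51. CXCL8, the prototype neutrophil chemokine, was at 47.35 and IL1B at 41.86, and IL6 and LIF were at 9.31 and 9.13. Other factors that stellate cells are known to secrete were low, with the monocyte chemokine CCL2 at 0.11 and CXCL12 at 0.52 (1.45 and 1.19). IL33 was at 0.03, and TSLP and TNFSF10 were each at 0.02.

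The promoters of the chemokines CXCL1 (chr4:73869293-73869392, + strand) and CXCL8 (chr4:73740469-73740568, + strand), neighbours on the same chromosome and both expressed, are shown as above, because both hold the κB-type letters that 0.399% of promoters held:
CXCL1: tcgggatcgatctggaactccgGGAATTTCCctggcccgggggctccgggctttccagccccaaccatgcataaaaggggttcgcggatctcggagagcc
CXCL8: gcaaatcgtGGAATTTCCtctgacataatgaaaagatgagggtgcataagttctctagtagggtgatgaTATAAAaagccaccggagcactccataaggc
The capitals mark the κB-type letters in each and the TATA box in CXCL8. The factors that bind such letters were expressed, with NFKB2 at 65.12 FPKM, RELA at 61.00, RELB at 49.72 and NFKB1 at 5.0. Across all promoters, the share with these letters did not follow the level steadily. From the lowest to the highest class of vehicle FPKM it was 0.281%, 0.475%, 0.526%, 0.172% and 0.499%. CXCL8 has an AT-rich transcript, of 37.6% GC, and was at 143.36 and 145.98 in the rhFGF19 libraries. The matches are letters in a window, and binding was not measured.

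Several secreted factors had a receptor gene under 1 FPKM in the same library. CXCL1 and CXCL8 act through CXCR2, which was at 0.02 FPKM, and CXCR1 had no row. CCL5 at 250.79 faced CCR1 at 0.02. IL1B at 41.86 faced IL1R1 at 0.28 and its accessory chain IL1RAP at 0.14. The paper reports that recombinant IL-1α activated JAK2 and STAT3 in LX-2 cells and raised markers of inflammatory fibroblasts. A level under 1 FPKM therefore does not mean that a receptor is missing. IL6 at 9.31 had its shared receptor chain IL6ST at 5.13, but the specific chain IL6R at 0.03. LIF at 9.13 had LIFR at 0.39 (1.16 and 1.29). Other factors were expressed with their receptor. GAS6 at 57.77 stood beside AXL at 215.95, IL11 at 51.31 beside IL11RA at 2.05, and TGFB1 at 134.38 beside TGFBR2 at 5.61. In the rhFGF19 libraries CXCR2, CCR1, IL1R1, IL1RAP and IL6R also stayed under 1 FPKM. Paracrine contact with cells that carry the receptors was outside what was measured.

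**Figure D4:**
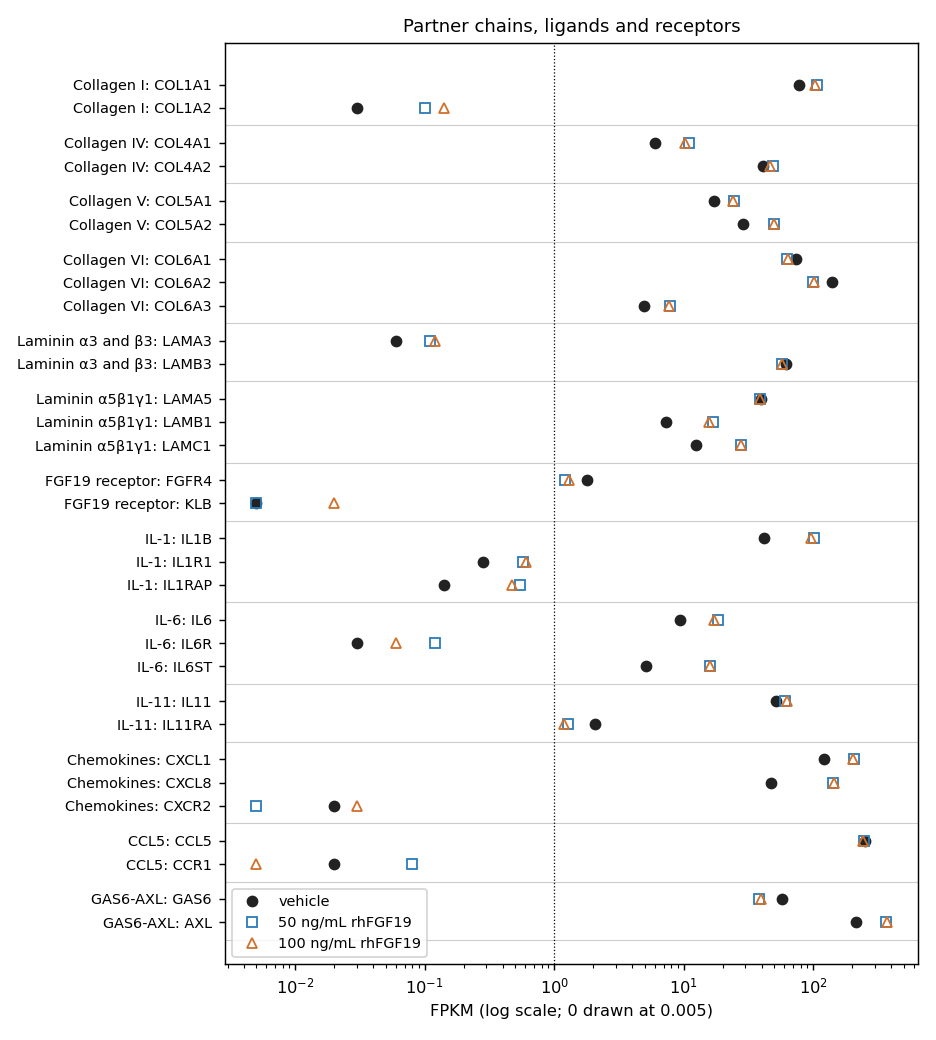
FPKM (horizontal, log scale, 0 drawn at 0.005) of collagen and laminin chains and of ligands with their receptors, in the vehicle library (filled circles) and in the libraries at 50 ng/mL (squares) and 100 ng/mL rhFGF19 (triangles), with 1 FPKM as a dotted line. COL1A2, LAMA3, KLB, CXCR2, CCR1, IL1R1, IL1RAP and IL6R lie left of the line in every library, while their partners COL1A1, LAMB3, FGFR4, CXCL8, CCL5, IL1B and IL6 lie right of it.

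Of 47 secreted growth factors and their binding proteins with a row, 29 were expressed (61.7%), with a median of 3.61 FPKM. Next to LGALS1, the insulin-like growth factor binding proteins IGFBP4 and IGFBP6 were at 427.06 and 291.37, progranulin (GRN) at 291.12, VEGFB at 169.48 and midkine (MDK) at 168.10. TGFB1, the chief fibrogenic cytokine of the liver, was at 134.38, and its relatives TGFB2 and TGFB3 were at 0.53 (2.02 and 1.95) and 0.07. TGFB1 overlaps rows on both strands. VEGFB was far above VEGFA, which was at 0.72 (1.46 and 1.40). BMP2 and EREG were at 0.04 and TGFA at 0.02. Of 19 complement and acute phase genes, 9 were expressed (47.4%), with the chaperone clusterin (CLU) at 42.66, the complement inhibitor CD59 at 33.78, the pentraxin PTX3 at 30.24, complement factor B (CFB) at 10.64, C3 at 6.50 and C1R at 3.69. C3 overlaps GPR108 on the same strand. Haptoglobin (HP) was at 0.05 and ceruloplasmin (CP) at 0. Complement C5 was at 0.05 in vehicle, and at 0.16 and 0.11 in the 50 and 100 ng/mL libraries. The paper reports C5a protein in LX-2 cells and a rise with FGF19, so this RNA level does not show that the protein is missing. By annotation, 464 of 1005 genes of the extracellular space were expressed (46.2%, against 52.7% of all genes).

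By annotation, 895 genes carried a transcription factor activity and 372 were expressed (41.6%, against 52.7% of all genes), with a median of 0.64 FPKM. The highest was FOSL1, a FOS-related subunit of AP-1, at 445.89 FPKM and rank 88. The cell cycle factors MYBL2, E2F1 and FOXM1 followed at 163.42, 144.49 and 122.98. SLC2A4RG was at 122.52, the nucleic acid-binding PCBP1 and HNRNPAB at 115.28 and 105.90, the stress factor ATF4 at 100.13, CEBPB at 86.70 and MAZ at 84.97.

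Of 50 inducible and signal-dependent factors, 43 were expressed (86.0%), with a median of 10.7 FPKM. HMGA1, an architectural chromatin protein, was at 1195.40, whereas its paralogue HMGA2 was at 0.44. Within AP-1, FOSL1 was joined by JUND at 52.39, JUN at 38.16 and JUNB at 30.82, while FOS was at 0.17. Among 29 mesenchymal and stellate factors with a row, 17 were expressed (58.6%, median 1.59) and 11 exceeded the median of genes of like GC content, led by TEAD4 at 42.83, TWIST2 at 23.43, SRF at 21.56, NR2F2 at 11.15, GATA4 at 5.82 and the TEAD co-activator YAP1 at 5.15. None of the 29 was under 0.1 FPKM, and of all 15122 genes 12268 were at 0.1 or more. PRRX1 and MEF2C had no row. LHX2 and WT1, regulators of the quiescent or embryonic stellate cell, were at 0.88 (1.33 and 1.48) and 0.78 (1.41 and 1.31), and ZEB1 at 0.28. Epithelial and hepatocyte factors were expressed for 2 of 17 genes (11.8%, median 0.07), SOX9 at 4.77 and KLF4 at 2.72, and FOXA1 was at 0.02, ELF3 at 0.07 and TP63 at 0.01.

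Of 28 nuclear receptors with a row, 15 were expressed (53.6%, median 1.56), against 52.7% of all genes, but 9 exceeded the median of all genes of like GC content. The orphan receptor ESRRA was at 34.70, the oxysterol receptor NR1H2 at 31.13, RXRB at 28.19, NR2F6 at 26.83, PPARD at 23.32 and the thyroid hormone receptor THRA at 15.33. Receptors with known roles in hepatocyte metabolism ranged widely. RXRA was at 3.15, the oxysterol receptor NR1H3 at 2.37 and the glucocorticoid receptor NR3C1 at 1.62, whereas NR1I3 was at 0.03, NR1I2 at 0.01 and NR0B2 and HNF4A at 0, and NR1H4, the bile acid receptor FXR, had no row. Among paralogues, PPARD at 23.32 stood above PPARA at 0.79 (1.82 and 1.76) and PPARG at 0.02.

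**Figure D5:**
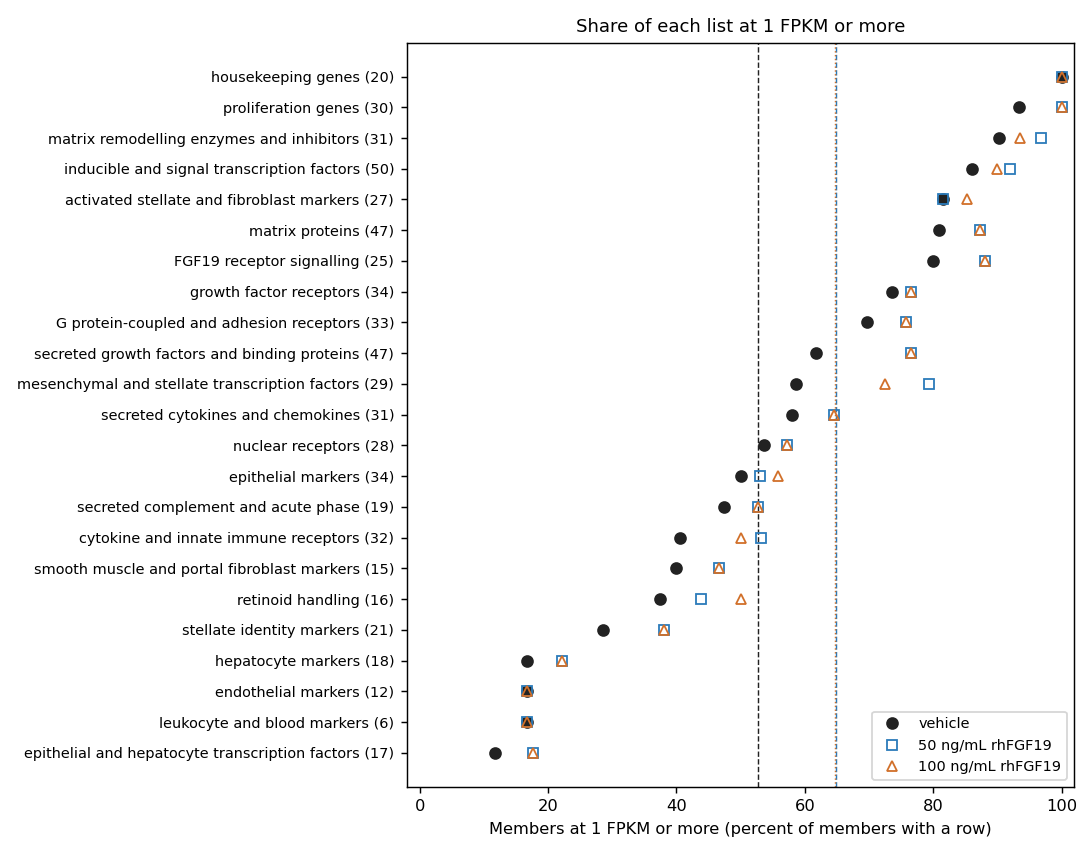
Percent of the members with a row (number in brackets) that were at 1 FPKM or more, for 23 gene lists, in the vehicle library (filled circles) and in the libraries at 50 ng/mL (squares) and 100 ng/mL rhFGF19 (triangles), with dashed lines at the shares of all named protein-coding genes (52.7%, 64.9% and 64.7%). Housekeeping, proliferation and matrix remodelling genes lie at the top with 90.3% or more in vehicle, and hepatocyte, endothelial, leukocyte and epithelial transcription factor lists at the bottom with 16.7% or less.

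Few genes near 0 in vehicle were expressed in both other libraries. Of the 15122 genes, 7832 were expressed in all 3 libraries and 65 in vehicle alone, and the latter had a median GC content of 63.0%. In all, 6 genes were under 0.1 FPKM in vehicle and at 1 or more in both rhFGF19 libraries. The genes at 0 in vehicle and expressed in both others numbered 3, or 10 when the values were rescaled to TPM, and no gene showed the reverse in FPKM. The 3 were the readthrough loci RPL36A-HNRNPH2, TMEM189-UBE2V1 and TRIM39-RPP21, with 6.36 and 4.73, 11.64 and 4.61, and 1.62 and 1.5 FPKM in the 50 and 100 ng/mL libraries. Each shares its sequence with the genes it joins, so reads assigned to it are uncertain.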

How the data were processed

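Poly(A) mRNA of 3 LX-2 cultures was sequenced, 1 library per condition. Reads were aligned by the authors with HISAT2, and the deposited table holds FPKM per gene and library in 26108 rows. The submitters' processing notes name Bowtie 0.12.2, HISAT2 2.0 and StringTie 1.3.0 and the builds mm8 and hg19 without roles, whereas the coordinates of the deposited table overlapped GRCh38 for 99.87% of the 25531 identifiers in GENCODE v29. The strand setting is not given in the sources used here. From the deposited FPKM, rows with a protein-coding transcript were kept (15286), 159 named only by a clone accession were dropped, and rows of the 5 shared symbols were summed. GC content was the median over a gene's transcripts and was found for 99.7% of genes.

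Genes were named by rule: the 20 highest, the 10 highest of each annotated class, and of each list up to 6 of its highest members and defining markers under 0.1 FPKM. Other list members, mainly chains, ligands and receptors with a partner, were added after their values were seen. The values of some genes that the rule names are not reported here. The genes and lists were chosen with earlier results of these data known. Counts were recomputed under 9 alternatives. The scripts were tested on simulated data and used Python 3.11.15, NumPy 2.4.6, pandas 2.3.3, SciPy 1.17.1 and Matplotlib 3.10.9. FPKM keeps no counts, so no interval or detection limit was available.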

Additional observations from a re-analysis of the deposited data

How the results depend on the processing

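Of 175 values recomputed under 9 alternatives, 136 stayed within 1.5 times the value reported (for the share of the 100 highest genes, within the 0.741 percentage points between the rhFGF19 libraries) and 39 moved. Thresholds of 2 FPKM, the highest row of a shared symbol and a share over expressed genes alone moved none. Keeping only rows listing protein_coding and no other transcript type drops most genes by construction. It left 1556 expressed genes, a share of the 100 highest genes of 76.05%, and as expressed members 1 of stellate identity, 4 of activated stellate and fibroblast, 1 of retinoid handling, 3 of matrix proteins, 5 of matrix remodelling, 5 of growth factor receptors, 1 of cytokine receptors, 5 of G protein-coupled and adhesion receptors, 7 of cytokines, 9 of growth factors, 2 of complement, 8 of mesenchymal factors, 1 of epithelial and hepatocyte factors, 13 of inducible factors, 3 of nuclear receptors, 4 of FGF19 signalling, 5 of epithelial, 2 of smooth muscle, 4 of proliferation, and 0 of the hepatocyte, endothelial and housekeeping lists. Rescaling to TPM, which multiplies all vehicle values, gave 10 genes at 0 in vehicle and expressed in both other libraries, and 10 of retinoid handling, 5 of epithelial and hepatocyte factors and 2 of leukocyte genes. A threshold of 0.5 FPKM gave 5 and 2 for the last lists named. Calling a gene when it exceeded the median of its class of GC content gave 3 of stellate identity, 3 of retinoid handling, 11 of mesenchymal factors, 1 of epithelial and hepatocyte factors, 9 of nuclear receptors, 1 of endothelial and 0 of leukocyte genes. Classes of length gave 4 of epithelial and hepatocyte factors. Without mitochondrial genes the 100 highest held 34.86%. The cause of the changes other than by construction was not tested. No paired analysis was possible because each condition has 1 library. The unknown depth limits every value near 0.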

Other observations

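Among rows outside the protein-coding set, 5420 were long non-coding RNAs, of which 1761 carried a gene symbol. Of the latter, 131 were at 1 FPKM or more and 14 at 10 or more in vehicle. The genes given here were picked after their values were seen. SNHG32, a host gene of small nucleolar RNAs, was highest at 161.45 FPKM in vehicle, with 122.36 and 132.68 in the 50 and 100 ng/mL rhFGF19 libraries. HEIH followed at 30.61. AGAP2-AS1, PINK1-AS and MIF-AS1, which lie antisense to coding genes, were at 29.75, 18.76 and 15.64. MIF-AS1 overlaps MIF, which was at 295.16, and without a stated strand setting their reads cannot be told apart. NORAD, which binds Pumilio proteins, was at 13.79 in vehicle and at 39.16 and 39.05 in the others. MIR31HG, the host of a microRNA, was at 11.99. Libraries prepared by poly(A) selection hold only the polyadenylated part of these RNAs.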
